A study of Homo sapiens with 6 samples.

Results

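The 10 genes described here form the core of the NRF2 antioxidant pathway in A549 cells, a human lung adenocarcinoma line. They were chosen by symbol, not by their values, and are NFE2L2, KEAP1, NQO1, GCLC, GCLM, TXNRD1, SRXN1, OSGIN1, ME1 and TXN. Each had a single row among the 30230 genes of the count table, and all 10 were among the 17076 genes tested. The data were 6 RNA sequencing libraries of polyadenylated RNA, 3 from cells given a control transfection (NC) and 3 from cells with FSCN1 silenced (siFSCN1). FSCN1 encodes fascin, which bundles actin filaments. According to the study's methods the control was a scrambled siRNA, while the treatment label names a control plasmid. The study's text names a single siRNA against FSCN1 for the sequenced cells, so effects of that siRNA and of the loss of fascin cannot be told apart. The labels name no other treatment. The comparison asks whether the NRF2 genes move with HMOX1, another gene of the pathway, when FSCN1 is silenced.

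NRF2, the protein of NFE2L2, is a transcription factor that pairs with small MAF proteins and binds antioxidant response elements near genes of glutathione synthesis, thioredoxin recycling, NADPH supply and quinone detoxification. KEAP1 holds NRF2 in the cytoplasm and presents it to a CUL3 ubiquitin ligase for degradation until oxidants or electrophiles modify KEAP1. A549 cells carry a mutant KEAP1 that restrains NRF2 poorly, so the pathway is constitutively active in this line, controls included, and NRF2 activity is set largely at the level of the protein, which RNA counts do not show.

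The antioxidant response element was searched as the letters TGACNNNGC on both strands, to show which of the 10 genes carry these letters close to an annotated start and how alike the matches are. In the 35116 RefSeq promoters (GRCh38.p14, from 250 bases before the start to 50 after it), 13.3% held a match, and 4 of the 10 genes did. In a window from 1000 bases before the start to 50 after it, read from GRCh38 for the same starts, 33.7% of promoters and 8 of the 10 genes held a match, those without one being NFE2L2 and SRXN1. The shares of all promoters are per start, and some of the 10 genes have several, so that per start 5 of their 13 promoters held a match in the narrower window and 9 of 13 in the wider one. The stricter letters TGACTCAGC, which also match TGACNNNGC, stood in 1.53% of these wider windows and in 2 of the 10 genes, NQO1 and ME1. The looser letters TGANNNNGC stood in 81.3% of the wider windows and in all 10 genes. They include TGAGTCAGC, which TGACNNNGC misses and which stood 272 bases before an annotated start of SRXN1 and 99 before one of OSGIN1. HMOX1 had no entry in the promoter table. Below, 6 of the matches are shown on the strand of the element, each with its flanks and with the match in capitals.
NQO1, chr16:69726996-69727025, minus strand, 455 bases before the start: gcagtcacagTGACTCAGCagaatctgagc
ME1, chr6:83431169-83431198, minus strand, 137 bases before the start: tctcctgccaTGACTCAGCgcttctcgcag
GCLM, chr1:93909446-93909475, plus strand, 34 bases before the start: tggaagacaaTGACTAAGCagaaatcgtag
KEAP1, chr19:10502784-10502813, plus strand, 31 bases before an annotated start: caggtcaccaTGACTAAGCagagccgggcg
TXNRD1, chr12:104215670-104215699, plus strand, 99 bases before an annotated start: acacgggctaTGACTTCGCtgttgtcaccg
TXN, chr9:110257070-110257099, plus strand, 581 bases before the start: tgctccagctTGACACAGCggtttagtgcg
The NQO1 and ME1 promoters thus hold the same 9 letters, as do the GCLM and KEAP1 promoters. A match is a description of the letters and not evidence of binding.

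Library totals ran from 27967301 to 36560919 counts, and the lowest count of any of the 10 genes in any library was 2285. FSCN1 itself fell to 6.75% of its NC level, with a log2 fold change of -3.89 and an edgeR adjusted p of 8.1e-16. The epithelial markers EPCAM, KRT7, KRT8, KRT18 and KRT19 were detected in every library, from 2.8 to 1946.66 FPKM, and of these KRT7, KRT8, KRT18 and KRT19 fell and EPCAM rose. Of 6 markers of leukocytes, macrophages, endothelial cells and fibroblasts, CD68 reached 0.65 FPKM, and PTPRC, PECAM1, CDH5, COL1A2 and PDGFRB were at or near 0. A gene is said to rise or fall where edgeR's quasi-likelihood test gave an adjusted p under 0.05 over all genes tested. CPM denotes counts scaled to library size by TMM (the usual CPM unit), the scale of that test. FPKM denotes the deposited values of fragments per gene length and sequencing depth, which are not scaled by TMM and are used to compare levels between genes. The depth that the authors divided by is not given in the sources used here. Scaling to library totals raised the median log2 fold change of all genes from 0.03 to 0.22, and upper quartile scaling raised it to 0.15, so small changes of single genes depend on the scaling.

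Expressed per length, the 10 genes fell into 2 tiers in NC. Thioredoxin (TXN), the small protein that reduces oxidised cysteines, was the most abundant at 889.71, 889.92 and 924.06 FPKM in NC replicates 1, 2 and 3. NQO1, a quinone reductase and the classic reporter of NRF2 activity, followed with 588.55, 573.69 and 587.08 FPKM. SRXN1 and TXNRD1 had means of 205.5 and 171.3 FPKM. The other 6 genes lay between 12.4 FPKM (NFE2L2) and 29.6 FPKM (GCLM), so that the transcription factor itself had the lowest level of the 10. In this order the libraries of neighbouring genes overlapped only between KEAP1 and ME1. In siFSCN1 the 4 most abundant genes kept their order, while ME1 moved from the seventh to the fifth place and GCLC, at 10.56 to 11.62 FPKM, took the lowest. There the libraries of KEAP1 and OSGIN1 overlapped, as did those of OSGIN1 and GCLM. The 10 genes together took 0.590% to 0.591% of all counts in the NC libraries and 0.520% to 0.543% in the siFSCN1 libraries.

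**Figure D1:**
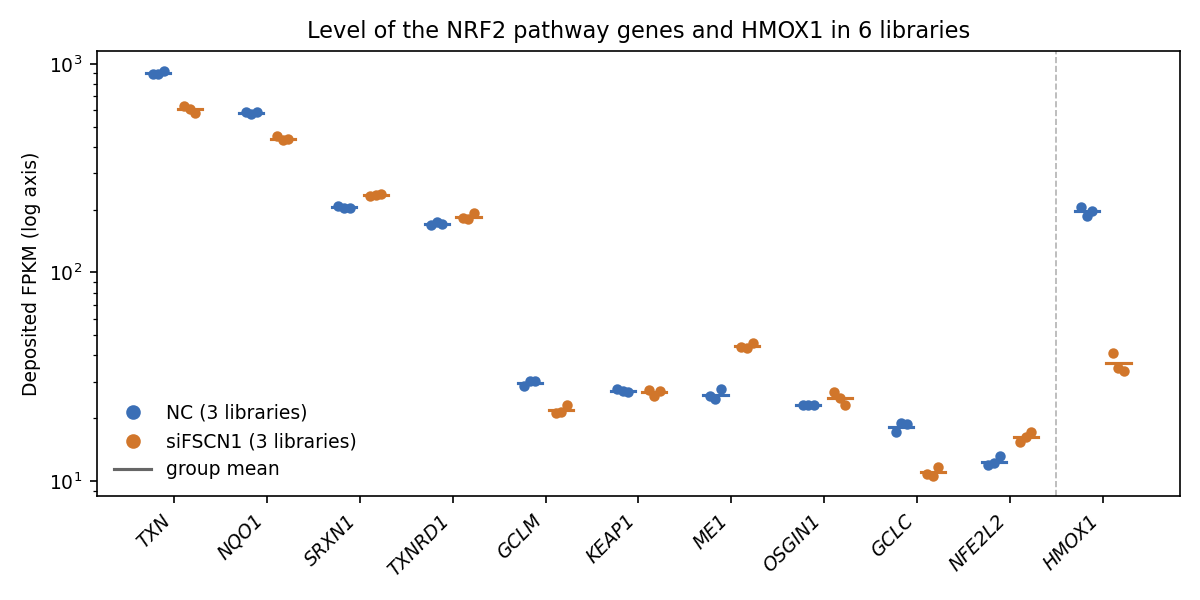
Deposited FPKM (log axis) of the 10 NRF2 pathway genes, ordered by their NC mean, and of HMOX1 at the right, with 1 point per library and a line at the mean of the 3 libraries of NC (blue) and siFSCN1 (orange). TXN and NQO1 were lower and ME1 higher in every siFSCN1 library, while HMOX1 dropped from a mean of 196.3 to 36.6 FPKM; these values are not scaled by TMM.

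Between siFSCN1 and NC, 7 of the 10 genes changed, 5 of them lower and 2 higher in siFSCN1, against 68.3% of all genes tested (33.2% lower and 35.1% higher). Such changes were thus about as common among all genes as among these 10. None of the 10 reached a 2-fold change, which 16.5% of all genes did (11.7% higher and 4.85% lower). The median log2 fold change of the 10 genes was -0.12, beside 0.03 for all genes tested. The CPM of the groups did not overlap for the same 7 genes, against 71.3% of all genes (36.8% higher and 34.4% lower). Library totals gave 5 higher and 4 lower of the 10, where all genes went to 7970 higher and 3829 lower, and upper quartile scaling gave 3 higher and 4 lower, beside 7195 and 4514. The median of the 10 genes relative to that of all genes was -0.16 on the log2 scale under TMM, RLE, upper quartile scaling and library totals. A single factor per library shifts all genes alike, so these scalings cannot change that relative median. Once the trend of fold change with abundance was removed the relative median turned to 0.10, with 5 higher and 4 lower beside 5609 and 5582 of all genes. The 4 falls and 2 rises that held under every scaling were those of GCLC, TXN, GCLM and NQO1 and those of ME1 and NFE2L2.

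Among the regulators, NFE2L2 (ENSG00000116044.16, GRCh38 chromosome 2, 177218667 to 177392756, minus strand) rose slightly. It had 85.8, 86.8 and 92.9 CPM in NC replicates 1, 2 and 3 and 96.1, 104.3 and 109.1 CPM in siFSCN1. Every siFSCN1 library lay above every NC library, by little, at a log2 fold change of 0.22 (SE 0.051, edgeR adjusted p 0.00092). In the annotation 3509 exonic bases of NFE2L2 are also exonic in HNRNPA3, a more abundant gene of the opposite strand whose log2 fold change was -0.30. The labels and the study's methods name different library kits, and the kit of the methods is called stranded. Whether the counting used strand information is not given in the sources used here, so the size of the NFE2L2 change is uncertain.

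KEAP1 (ENSG00000079999.14, chromosome 19, 10486125 to 10503558, minus strand), the inhibitor, had 124.9, 121.5 and 118.7 CPM in NC and 107.8, 103.7 and 108.1 CPM in siFSCN1. The groups did not overlap on this scale, and KEAP1 fell with a log2 fold change of -0.19 (SE 0.041, edgeR adjusted p 0.00047). This call was lost under upper quartile scaling (-0.07, adjusted p 0.119) and library totals (-0.0052, 0.920), and the sign turned once the abundance trend was removed (0.015, 0.761). In deposited FPKM, the KEAP1 libraries overlapped, with 26.64 to 27.52 in NC and 25.55 to 27.27 in siFSCN1. The FPKM ratio of NFE2L2 to KEAP1 within a library, which a single scaling factor per library leaves as it is, ran from 0.433 to 0.493 in NC and from 0.562 to 0.636 in siFSCN1, with no overlap.

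NQO1 (ENSG00000181019.13, chromosome 16, 69706996 to 69726668, minus strand) had 2221, 2144 and 2176 CPM in NC and 1478, 1449 and 1458 CPM in siFSCN1. The libraries of each group were close together and far from the other group. NQO1 fell to 67.0% of its NC level, with a 95% interval from 63.6% to 70.7% and a log2 fold change of -0.58 (SE 0.036, edgeR adjusted p 1.2e-10). A long non-coding RNA of the opposite strand (ENSG00000261602) shares 575 exonic bases with NQO1, at a mean of 15.1 FPKM.

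GCLC and GCLM encode the catalytic and the modifier subunit of glutamate-cysteine ligase, which carries out the rate-limiting step of glutathione synthesis. GCLC (ENSG00000001084.13, chromosome 6, 53497341 to 53616970, minus strand) had 187.4, 205.0 and 200.9 CPM in NC and 103.3, 103.4 and 112.6 CPM in siFSCN1. This was the furthest fall of the 10 genes, to 53.8% of the NC level (95% interval 50.3% to 57.5%), with a log2 fold change of -0.89 (SE 0.046, edgeR adjusted p 6.7e-12). GCLM (ENSG00000023909.10, chromosome 1, 93885199 to 93909456, minus strand) had 197.7, 204.8 and 203.4 CPM in NC and 127.7, 132.1 and 141.9 CPM in siFSCN1, a log2 fold change of -0.59 (SE 0.043, edgeR adjusted p 6.7e-10). Both subunits were lower in each siFSCN1 library, but not to the same extent. The FPKM ratio of GCLC to GCLM was 0.597, 0.630 and 0.622 in the NC libraries and from 0.493 to 0.510 in the siFSCN1 libraries, with no overlap.

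The thioredoxin system split. TXN (ENSG00000136810.13, chromosome 9, 110243810 to 110256507, minus strand) had 1142, 1131 and 1164 CPM in NC and 699.8, 699.2 and 656.2 CPM in siFSCN1. It fell to 59.8% of its NC level (95% interval 56.6% to 63.2%), with a log2 fold change of -0.74 (SE 0.038, edgeR adjusted p 6.5e-12). TXN has 7 named pseudogenes in the annotation, so with multiply mapped reads discarded by the authors only reads placed uniquely contribute to its values. TXNRD1 (ENSG00000198431.16, chromosome 12, 104215779 to 104350307, plus strand), the selenoprotein reductase that returns electrons from NADPH to thioredoxin, had 1432, 1471 and 1436 CPM in NC and 1347, 1381 and 1447 CPM in siFSCN1. These ranges overlapped, and the log2 fold change of -0.06 had a 95% interval from -0.14 to 0.02 and an edgeR adjusted p of 0.204. Its sign depended on the scaling, with 0.13 (adjusted p 0.00443) under library totals and 0.31 (2.0e-06) once the abundance trend was removed, while without siFSCN1 replicate 3 it was -0.10 (0.0269). The ratio of TXN to TXNRD1 does not depend on a library's scaling factor. It was 5.29, 5.11 and 5.39 in the NC libraries and 3.45, 3.36 and 3.01 in the siFSCN1 libraries in FPKM, so that thioredoxin transcripts fell relative to those of their reductase in every library.

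SRXN1 (ENSG00000271303.2, chromosome 20, 646615 to 653200, minus strand), sulfiredoxin, repairs hyperoxidised peroxiredoxins. It had 671.7, 646.5 and 643.7 CPM in NC and 649.4, 671.8 and 675.1 CPM in siFSCN1. The ranges overlapped, and the log2 fold change of 0.03 had a 95% interval from -0.05 to 0.10 and an edgeR adjusted p of 0.553, so the interval did not reach the size of the TXN or NQO1 change on this scale. Under library totals SRXN1 was higher (0.21, adjusted p 2.5e-05), as under upper quartile scaling (0.14, 0.00255). OSGIN1 (ENSG00000140961.14, chromosome 16, 83931311 to 83966332, plus strand), an oxidative stress-induced growth inhibitor, had 163.2, 161.0 and 160.4 CPM in NC and 164.8, 157.3 and 144.3 CPM in siFSCN1. The siFSCN1 values spread across the NC range and below it, and the log2 fold change of -0.06 had an edgeR adjusted p of 0.289. It turned to 0.13 (adjusted p 0.00930) under library totals, and to -0.11 (0.0260) without siFSCN1 replicate 1.

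ME1 (ENSG00000065833.9, chromosome 6, 83210402 to 83431051, minus strand), the cytosolic malic enzyme that makes NADPH and pyruvate from malate, moved the other way. Its values were 108.4, 104.4 and 114.7 CPM in NC and 162.3, 165.1 and 172.9 CPM in siFSCN1. ME1 rose to 152.7% of its NC level (95% interval 143.2% to 162.8%), with a log2 fold change of 0.61 (SE 0.044, edgeR adjusted p 7.2e-10). It was the furthest rise of the 10 genes. The ME1 promoter holds the same 9-letter match as that of NQO1, which fell, and the part of this match in either change was not tested.

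**Figure D2:**
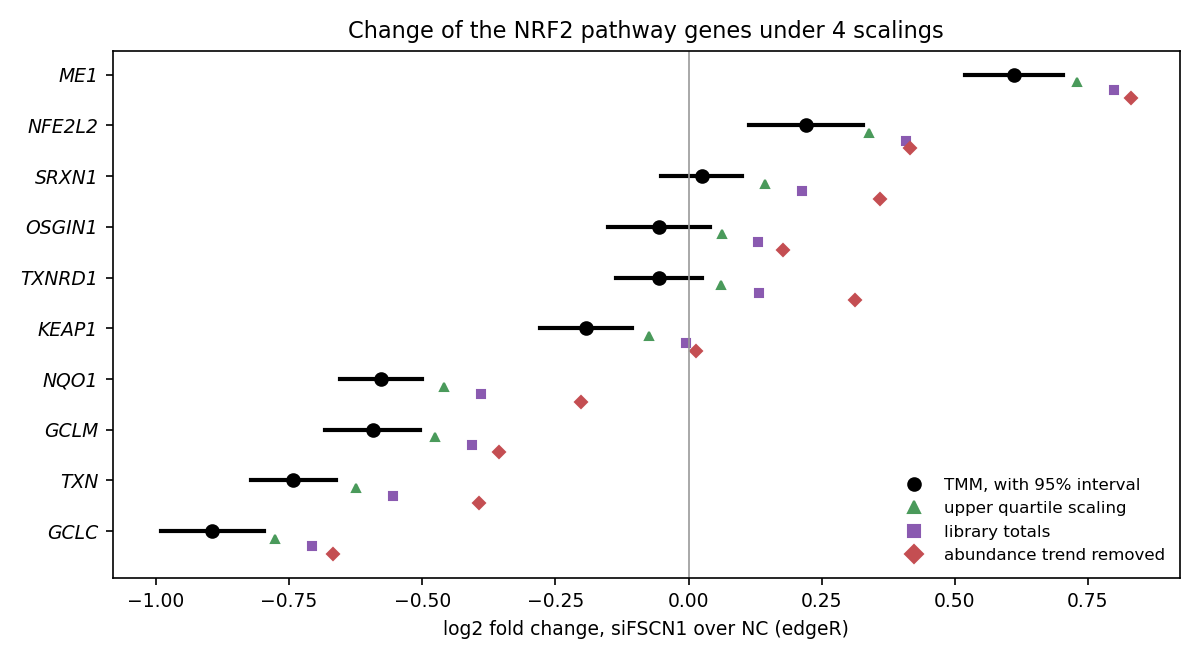
Log2 fold change of each NRF2 pathway gene (siFSCN1 over NC) with TMM scaling (black, bar for the 95% interval) and under 3 other scalings (coloured marks, offset below). ME1 and NFE2L2 lay to the right of 0 and NQO1, GCLM, TXN and GCLC to the left under each scaling, while OSGIN1, TXNRD1 and KEAP1 crossed 0 and SRXN1 ran from 0.03 to 0.36.

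Because the small changes depended on scaling, the count ratio of each pair of the 10 genes was taken within each library. Of the 45 pairs, 39 had ratios that did not overlap between the groups, where 67.4% of all pairs of tested genes did not overlap. That share includes genes counted far less deeply than these 10, and the 45 pairs reuse the same 10 genes. It is therefore not a like comparison. The 6 pairs that overlapped were NQO1 with GCLM, GCLC with TXN, TXNRD1 with SRXN1, TXNRD1 with OSGIN1, SRXN1 with OSGIN1 and KEAP1 with OSGIN1. The 10 genes were thus spread over several levels of change. GCLC and TXN stood lowest, NQO1 and GCLM next, KEAP1, OSGIN1, TXNRD1 and SRXN1 in the middle, and NFE2L2 and then ME1 highest. In the middle, KEAP1 overlapped only with OSGIN1 and stood below TXNRD1 and SRXN1. The ratio of NQO1 to GCLM changed by 0.02 on the log2 scale, and that of TXNRD1 to OSGIN1 by 0.00098. These ratios are free of a library's scaling factor but not of an offset that depends on abundance. With the abundance trend removed, the fold change of NQO1 stood 0.15 above that of GCLM on the log2 scale. That of TXNRD1 stood 0.14 above that of OSGIN1, while TXN stood -0.04 from GCLM and GCLC -0.27 from TXN. The close pairs and the grouping into levels thus hold only without that offset. The order of the fold changes stayed the same, except that TXNRD1 and OSGIN1 changed places. The largest difference was that between ME1 and GCLC.

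**Figure D3:**
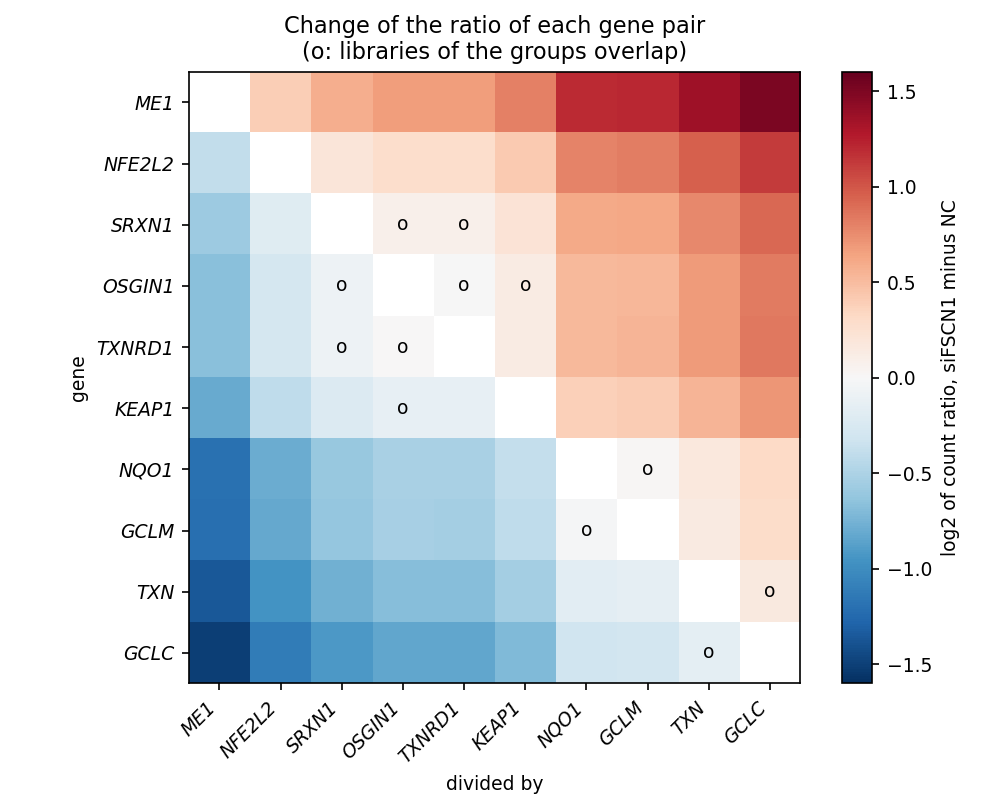
Change of the within-library count ratio of each gene pair (row divided by column), as the mean log2 ratio in siFSCN1 minus that in NC, red for higher and blue for lower in siFSCN1; o marks the 6 pairs whose libraries overlap between groups. The overlapping pairs lie near the diagonal, where genes of like change meet, but not every pair beside it overlaps, as with KEAP1 and TXNRD1.

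HMOX1 (ENSG00000100292.18, chromosome 22, 35380361 to 35394214, plus strand), the heme oxygenase that NRF2 activates and BACH1 represses, had 602.4, 540.5 and 566.9 CPM in NC and 105.3, 90.9 and 87.8 CPM in siFSCN1. It fell to 16.6% of its NC level, further than any of the 10 genes, the lowest of which kept 53.8%. The count ratio to HMOX1 was higher in each siFSCN1 library than in every NC library for all 10 genes, as it was for 99.3% of all other genes tested. HMOX1 had been singled out for its fall, so these ratios are a description with no test. The ratio of NQO1 to HMOX1 was 3.69, 3.97 and 3.84 in NC and 14.0, 15.9 and 16.6 in siFSCN1. On the log2 scale the ratio to HMOX1 rose least for GCLC (1.70) and TXN (1.85) and most for ME1 (3.21). The 5 genes that fell with HMOX1 therefore did so by far less, and ME1 and NFE2L2 went the opposite way.

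The wider pathway was read from 3 further lists, which overlap, since 5 of the 30 other targets (GSR, GPX2, PRDX1, MAFG and SQSTM1) also stand in 1 of the other lists and are counted in both. Of 30 other NRF2 target genes, 20 fell and 7 rose, and 3 did not pass (AKR1B10, ABCC1 and MAFG), where 33.2% of all genes tested fell and 35.1% rose, and the median log2 fold change was -0.26, beside 0.03 for all genes. With HMOX1 left out, 19 of 29 fell and 7 rose. More genes of the list fell than rose under library totals (14 and 10) and upper quartile scaling (16 and 8) as well. Its median relative to all genes was -0.30 under both, a value that a single factor per library cannot change. The direction turned once the abundance trend was removed, with 9 lower and 15 higher and a median of 0.09 relative to all genes. The 30 genes made up 5.23% to 5.41% of the counts of the siFSCN1 libraries and 6.19% to 6.41% of those of the NC libraries. Beside HMOX1, the furthest changes were those of ABCC3, SLC7A11 and AKR1C2. ABCC3, an export pump for glutathione and glucuronide conjugates, averaged 753.4 ± 9.78 CPM in siFSCN1 against 185.5 ± 7.81 in NC (SD, n = 3) and rose, with a log2 fold change of 2.02 (edgeR adjusted p 1.6e-16). SLC7A11, the cystine importer that feeds glutathione synthesis, rose with a log2 fold change of 1.01 (edgeR adjusted p 8.1e-13) while GCLC and GCLM fell. AKR1C2, an aldo-keto reductase, averaged 3093 ± 177 CPM in siFSCN1 against 6437 ± 332 in NC (SD, n = 3) and fell, with a log2 fold change of -1.06 (edgeR adjusted p 1.7e-12), and its value is uncertain since AKR1C1, AKR1C2 and AKR1C3 have near-identical sequences. These 3 genes kept their direction under every scaling.

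Of 13 regulators of KEAP1 and NRF2, 5 fell, 3 rose and 5 did not pass, where 68.3% of all genes tested changed. Its median log2 fold change was -0.06, which was -0.09 relative to all genes and turned to 0.10 relative to them once the abundance trend was removed. Library totals gave 4 lower and 6 higher, as did removal of that trend, and upper quartile scaling 4 lower and 5 higher. BACH1, the repressor that competes with NRF2 at antioxidant response elements and holds HMOX1 down, had 15.5, 14.5 and 12.3 CPM in NC and 24.4, 28.0 and 28.8 CPM in siFSCN1. The groups did not overlap, and BACH1 rose by 0.94 on the log2 scale (SE 0.082, edgeR adjusted p 9.7e-09). FBXW11, a substrate adaptor of a second ubiquitin ligase that acts on NRF2, averaged 13.4 ± 0.432 CPM in siFSCN1 against 51.6 ± 2.04 in NC (SD, n = 3) and fell, with a log2 fold change of -1.95 (edgeR adjusted p 3.8e-15), while its paralog BTRC rose (0.51, 1.5e-06). SQSTM1, the autophagy receptor that binds KEAP1 and is itself an NRF2 target, fell (-0.72, 1.9e-11), as did DPP3 (-0.82, 3.3e-10), a peptidase that binds KEAP1. SQSTM1 shares 1582 exonic bases with MRNIP, a gene of the opposite strand at a mean of 12.6 FPKM.

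Of 25 other enzymes and regulators of the glutathione and thioredoxin systems, 15 fell, 5 rose and 5 did not pass, where 33.2% of all genes tested fell and 35.1% rose. The median log2 fold change was -0.25, or -0.28 relative to all genes. Library totals and upper quartile scaling left that difference at -0.28, as any single factor per library must. Library totals gave 10 lower and 8 higher and upper quartile scaling 12 and 7. Removal of the abundance trend gave 10 and 10, with a median of -0.01 relative to all genes. GPX1, the abundant cytosolic glutathione peroxidase, averaged 82.6 ± 11.1 CPM in siFSCN1 against 260.2 ± 6.17 in NC (SD, n = 3) and fell, with a log2 fold change of -1.66 (edgeR adjusted p 1.7e-13). The glutaredoxin GLRX3 (-1.07, 1.3e-13) and GGCT (-0.97, 5.2e-12), which acts on gamma-glutamyl dipeptides, also fell. The mitochondrial TXN2 (-0.72, 4.1e-11) and TXNRD2 (-0.66, 6.1e-09) both fell. Those that rose, TXNIP apart, were GLRX (0.76, 9.6e-10), SOD2 (0.36, 9.5e-06), PRDX4 (0.35, 2e-07) and CAT (0.31, 3.1e-05). TXN2, TXNRD2 and these risers were named after their values were seen. TXNIP, an inhibitor of thioredoxin, was close to the detection limit, at 0.623, 0.570 and 0.117 CPM in NC and 0.843, 1.52 and 0.883 CPM in siFSCN1, and its rise (1.35, 0.00834) was lost without NC replicate 3 (0.84, 0.0537), without siFSCN1 replicate 2 (1.02, 0.0636) and once the abundance trend was removed (0.94, 0.0594).

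**Figure D4:**
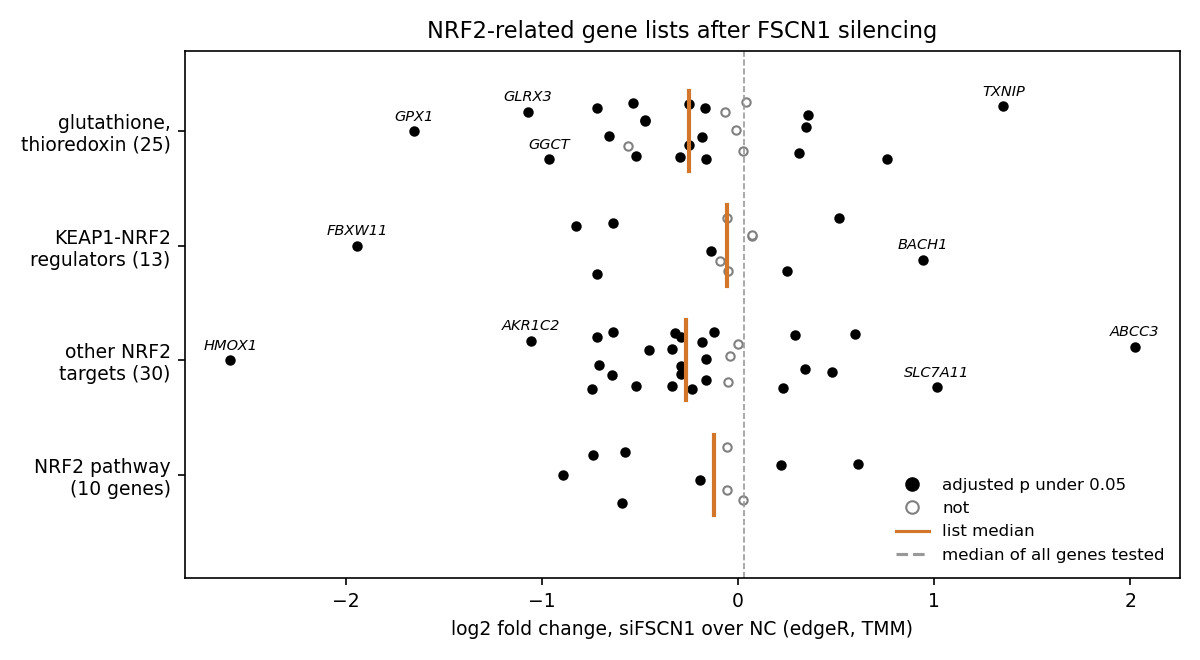
Log2 fold change (siFSCN1 over NC, TMM) of every gene in the 4 lists, filled where the adjusted p was under 0.05, with each list's median (orange) and the median of all genes tested (dashed). HMOX1 (-2.59) and ABCC3 (2.02) lie furthest out, and the 10 NRF2 pathway genes stay between -0.89 and 0.61.

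The guide strand of the siRNA can act on other transcripts through its bases 2 to 8, which pair with the letters CTCTGGA. These letters were found in the longest annotated 3′ UTR of 22.6% of 13486 tested protein-coding genes, whose median log2 fold change was -0.09, beside -0.0036 for genes without a match. Of the 10 genes, 3 had a match, KEAP1, GCLC and GCLM with 1 each, and HMOX1 had 1 as well. FBXW11 had 3 and ABCC3, which rose, had 1. NQO1, TXN and ME1 had none. The part of these matches in the changes was not tested.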

How the data were processed

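Reads were trimmed by the authors and mapped to GRCh38, with HISAT2 named in the study's methods and TopHat2 in the submitters' processing notes, and reads mapping to more than 1 place were dropped. Which program counted them, with what annotation and strand option, is not given in the sources used here. The authors deposited raw counts per gene, whose library totals ran from 27967301 to 36560919, and FPKM rounded by them, both used as deposited. Groups and replicate numbers came from sample titles. The study calls the replicates biological without describing separate cultures, so p-values measure the spread between these libraries. The members and lists were chosen with earlier results of these data known.

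Counts were filtered by filterByExpr (17076 of 30230 genes), scaled by TMM and tested by the quasi-likelihood method of edgeR 4.0.16 in R 4.3.3, on all 6 libraries with no covariate, with Benjamini-Hochberg adjustment over all genes tested. Standard errors and 95% intervals were computed from each gene's fold change and F value. The authors used DESeq2, which was run as an alternative (1.42.0). The other alternatives were RLE, upper quartile and library total scaling, a loess offset per library against abundance, keeping every gene with 1 count, requiring 1 CPM in 3 libraries and on average 10 counts, a replicate block, leaving out each library, and limma 3.58.1 on log2(FPKM + 0.1) and log2(FPKM + 1). The edgeR test with TMM, the same with the loess offset, DESeq2 and limma (on CPM with a pseudocount of 0.1) were run on simulated data first. The other alternatives were not. The simulated rises and falls were equal in number, so that run did not test the choice of scaling.

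The genes named are the 10 genes, HMOX1, FSCN1, BACH1, SLC7A11 and the 4 genes of each other list with the largest absolute log2 fold change among those with an adjusted p under 0.05. Any other list gene was named after its values were seen, and 1 gene of the rule is not reported here. Positions, pseudogenes, overlaps and 3′ UTRs came from GENCODE v44 (GRCh38), matched without regard to version. Promoter starts came from RefSeq, and the last 300 bases of all 35116 wider windows equalled the RefSeq sequence.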

Additional observations from a re-analysis of the deposited data

How the results depend on the processing

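Of the 23 genes followed, 18 kept their direction and their side of the threshold under every alternative run, among them NQO1, GCLC, GCLM, TXN, ME1, NFE2L2 and HMOX1. NQO1 ran from -0.60 to -0.20 on the log2 scale, GCLC from -0.95 to -0.67, GCLM from -0.65 to -0.36, TXN from -0.77 to -0.39, ME1 from 0.57 to 0.83, NFE2L2 from 0.17 to 0.42 and HMOX1 from -2.69 to -2.33. TXNRD1 turned to 0.062 with upper quartile scaling, 0.13 with library totals, 0.31 with the abundance trend removed and 0.11 with limma on either FPKM scale (0.1095 and 0.1089). OSGIN1 turned to 0.063, 0.13 and 0.18 with the same 3 scalings and to 0.11 and 0.10 with limma. KEAP1 turned to 0.015 with the abundance trend removed.

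The count of the 10 genes that rose was 2. It was 5 with library totals and with the abundance trend removed, and 4 with limma for either pseudocount on FPKM. Of other NRF2 targets, 15 rose and 9 fell with the abundance trend removed, and 13 fell with limma on either FPKM scale. Of the regulators, 5 rose with upper quartile scaling, 6 with library totals, 6 with the trend removed and 5 with limma on either scale. Of the glutathione and thioredoxin genes, 8 rose with library totals, 10 with the trend removed, and 8 rose and 9 fell with limma on either scale. FPKM are scaled to sequencing depth without TMM, so the limma settings resemble library totals, though the depths used were not exactly the count totals. The cause of the other shifts was not tested.

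Sharing a replicate number did not pair libraries across groups: once group means were subtracted, libraries 1, 2 and 3 of NC and siFSCN1 correlated at -0.0521, 0.068 and -0.133. A replicate block gave 11654 changed genes in place of 11663. It left each of the 23 genes followed on its side of the threshold, and the counts of rises and falls in each list were the same. The ratio of each gene to HMOX1 stayed higher in every siFSCN1 library for all 10 genes with FPKM in place of counts and without any single library. Neither setting could have changed this. FPKM only divide each gene by a fixed length, and leaving out a library cannot make separate groups overlap. With the looser letters TGANNNNGC, 7 of the 10 genes had a match within 250 bases before the start and 10 within 1000, where 41.8% and 81.3% of promoters did. Whether the counts separate the strands and how much protein is active limit what these transcripts show.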
